A study of Mus musculus with 12 samples.

Results

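The Hedgehog pathway genes described here are the 9 genes *Hhip*, *Ptch1*, *Smo*, *Gli1*, *Gli2*, *Gli3*, *Boc*, *Cdon* and *Sufu*. They were chosen by name, as the receptors, transducers and ligand-binding inhibitor of the pathway, and all 9 were found among the 18180 genes of the deposited table. The bulk RNAseq data came from 3 end-stage mouse glioblastomas (GBMs), called T3, T4 and T5, and each tumor gave 4 sorted populations, so there were 12 libraries with 3 tumors per population. All tumors arose in adult mice carrying a conditional (Cre/Lox) transgene for human EGFR, a Cdkn2a -/- genotype and a conditional luciferase reporter, after a lentivirus carrying Cre was injected into the brain. The strain background was mixed (C57Bl/6J, 129S4, FVBN/J and Balb/cJ in the labels, with SJL added in the study's methods), and the age and sex of these 3 mice were not in the sample labels. Because Cre came from an injected virus, the tumor cells were those infected at the injection site and their progeny, whatever cell type took up the virus. Cells positive for EGFR were sorted with an antibody to PDGFR into PDGFRA+ and PDGFRA- cells, or with an antibody to Galectin-1 into GAL1+ and GAL1- cells. Cells from 1 tumor could fall into a gate of each pair, so the populations are not exclusive of each other. The study calls these cells CD45-, although its account of the sort lists no CD45 antibody.

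In the Hedgehog pathway, secreted ligands (Sonic, Indian and Desert hedgehog) bind the membrane receptor Patched, which otherwise holds the transducer Smoothened inactive. Released Smoothened acts at the primary cilium, the GLI transcription factors escape their binding protein SUFU, and target genes are turned on. *Ptch1*, *Hhip* and *Gli1* are themselves targets in many tissues, which gives the pathway negative feedback from Patched and HHIP and positive feedback from GLI1. In the embryonic central nervous system Sonic hedgehog patterns the ventral neural tube, including the domain where oligodendrocyte precursors arise.

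Values are log2 CPM, read counts scaled to the size of their library and put on a log2 scale. Differences are log2 fold changes from a linear model with the tumor as a block, and a gene was called when its Benjamini-Hochberg adjusted p over all 18180 genes was under 0.05 (limma). The libraries held 9851175 to 24117541 reads, recovered from the deposited values. A count of 3 reads, the floor taken for detection, lay between −2.99 and −1.44 log2 CPM depending on the library, and covers counting error only. The sort markers bear on every comparison. In GAL1+ over GAL1- cells the log2 fold change was −2.10 for *Egfr*, −2.97 for *Pdgfra* and 4.04 for the leukocyte gene *Ptprc*, and all 3 were called. The summed level of 12 pan-leukocyte markers ran from 2917 to 4120 CPM for GAL1+, from 726 to 3287 for PDGFRA-, from 677 to 1520 for PDGFRA+ and from 93.6 to 237 for GAL1- cells, and none of the 12 was at the floor in any library. The PDGFRA- library of T5 stood apart from its group. On the first principal component, which held 58.5% of the variance, it scored 82.4, among the GAL1+ libraries (63.8 to 120) and away from the other PDGFRA- libraries (−16.8 and −13.5).

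Promoter sequences are shown for 3 members, *Hhip* and *Sufu*, which fell in GAL1+ cells, and *Ptch1*, which had the narrowest range of the 9 genes. Each is the 250 bases before the gene's start in RefSeq (GRCm38.p6), read 5′ to 3′ on the gene's strand. Capitals mark a stretch with the fewest mismatches to GACCACCCA, the core sequence that GLI factors bind, on either strand. Where stretches of a promoter were equally close, only the first found is marked, as for *Ptch1* and *Sufu*. The regions are chr8:80058009-80058258 (minus strand) for *Hhip*, chr13:63565736-63565985 (minus strand) for *Ptch1* and chr19:46396646-46396895 (plus strand) for *Sufu*.
Hhip: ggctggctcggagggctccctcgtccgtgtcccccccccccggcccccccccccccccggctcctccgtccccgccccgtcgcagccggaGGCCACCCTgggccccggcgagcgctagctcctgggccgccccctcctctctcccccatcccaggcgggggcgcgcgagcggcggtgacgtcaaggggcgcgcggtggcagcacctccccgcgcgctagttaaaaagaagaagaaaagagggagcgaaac
Ptch1: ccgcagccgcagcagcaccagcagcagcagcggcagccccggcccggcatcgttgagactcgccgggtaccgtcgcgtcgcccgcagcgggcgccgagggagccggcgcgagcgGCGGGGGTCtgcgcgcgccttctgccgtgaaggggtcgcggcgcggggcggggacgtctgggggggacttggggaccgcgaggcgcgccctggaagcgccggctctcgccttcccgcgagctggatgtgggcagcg
Sufu: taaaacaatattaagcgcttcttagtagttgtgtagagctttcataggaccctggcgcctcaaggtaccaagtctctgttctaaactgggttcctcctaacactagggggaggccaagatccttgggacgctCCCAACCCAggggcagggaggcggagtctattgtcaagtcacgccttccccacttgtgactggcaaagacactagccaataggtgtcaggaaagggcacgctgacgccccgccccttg

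The stretch in the *Hhip* promoter, GGCCACCCT, lies 160 to 152 bases before the start and differs from the motif at 2 of its 9 positions. Those in the *Ptch1* and *Sufu* promoters differ at 3. Of 32851 mouse promoters of this length, 0.225% held the exact motif, 5.79% came within 1 mismatch and 51.8% within 2. Of the 7 members with a sequence (all but *Gli1* and *Boc*), 0 held the exact motif, 0 came within 1 mismatch and 3 (*Hhip*, *Gli2* and *Smo*) within 2. The *Hhip* promoter had 76.0% G and C with 28 CpG dinucleotides, that of *Ptch1* 78.4% with 41 and that of *Sufu* 54.0% with 8, against medians of 52.4% and 6 over all promoters. A match to these letters describes the sequence and is not evidence of binding.

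Levels between genes were compared per kb of exon, with exon lengths from the GENCODE annotation of GRCm38. *Smo*, the signal transducer, was the highest member in GAL1- cells at 4.38 ± 0.24 CPM per kb (SD, n = 3 tumors), above the range of every other member there. *Boc* (3.34 ± 0.32), *Sufu* (3.01 ± 0.26) and *Ptch1* (2.71 ± 0.17) followed, and each overlapped its neighbour in that order. *Cdon* (0.875 ± 0.607), *Hhip* (0.621 ± 0.20) and *Gli3* (0.579 ± 0.352) formed a lower set with overlapping ranges. *Gli2* (0.199 ± 0.118) and *Gli1* (0.118 ± 0.134) were lowest by their means. They overlapped each other and *Gli3*, whose range ran from 0.175 to 0.823. In GAL1+ cells *Smo* was again first by its mean (3.51 ± 1.01) but overlapped *Ptch1* (2.56 ± 0.22), and *Sufu* (1.995 ± 0.140) came next, below the range of *Ptch1*. *Boc* stood at 0.776 ± 0.491 in these cells, within the range of *Cdon* (0.711 ± 0.280), and *Hhip* at 0.0862 ± 0.0846 was the lowest of the 9 by its mean, with a range overlapping that of *Gli1* (0.167 ± 0.056).

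**Figure D1:**
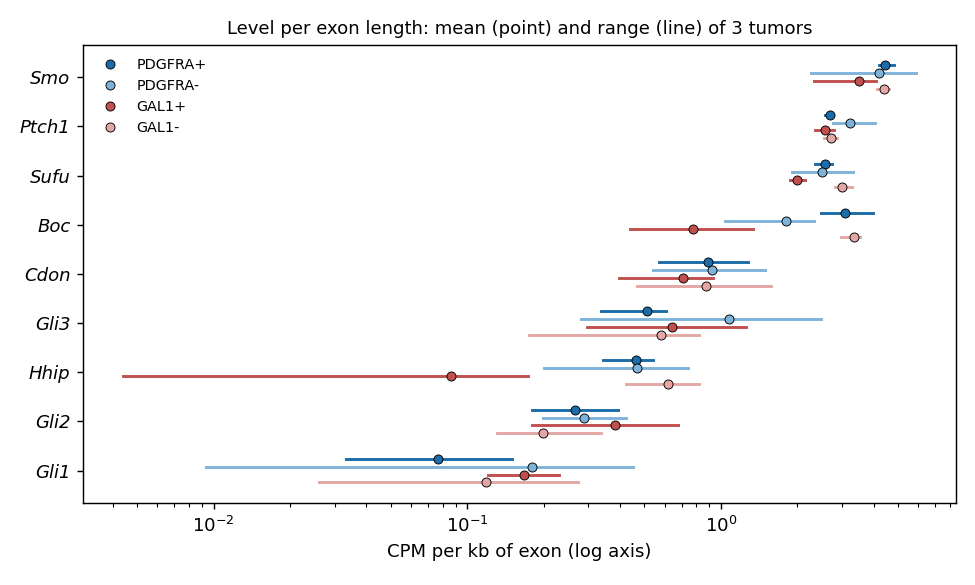
Level of each Hedgehog gene per exon length (x axis, CPM per kb, log scale) in the 4 sorted populations; points are means of 3 tumors and lines run from the lowest to the highest tumor. *Smo*, *Ptch1* and *Sufu* lie near each other in all populations, while the GAL1+ points of *Boc* (0.776) and *Hhip* (0.0862) lie below the lowest tumor of the other 3 populations.

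The first comparison was between GAL1+ and GAL1- cells, the cells with and without Galectin-1 on their surface. Of the 9 Hedgehog genes, 3 were called lower in GAL1+ cells (*Hhip*, *Boc* and *Sufu*) and 0 higher, while *Ptch1*, *Smo*, *Cdon* and the 3 *Gli* genes did not pass the test. Over all genes, 58.2% were called in this comparison, 28.9% higher and 29.3% lower, so 3 of 9 is not more than the background. The median log2 fold change of the members was −0.18, against −0.03 over all genes. In bulk libraries, fewer cells that express a gene and less of its RNA per cell cannot be told apart.

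*Hhip* encodes a membrane glycoprotein that binds Hedgehog ligands and keeps them from Patched. GAL1+ cells had a log2 CPM of −0.45 for T3, −4.65 for T4 and 0.65 for T5, from 12, 0 and 19 reads. In GAL1- cells it was 1.93, 2.49 and 2.90, from 106, 134 and 184 reads. In PDGFRA+ cells it was 1.64, 2.20 and 2.29, and in PDGFRA- cells 0.86, 2.05 and 2.75. The 3 GAL1+ libraries were the lowest of the 12 and did not overlap any other population, while the other 3 populations overlapped each other. The log2 fold change of GAL1+ over GAL1- cells was −3.92 (SE 0.96, adjusted p = 0.00632), lower in 3 of 3 tumors. Its size rested on the GAL1+ library of T4, which had no *Hhip* read and so takes its value from voom's offset of 0.5. Without that library the log2 fold change was −2.28 (adjusted p = 0.000594). The ratio of GAL1- to GAL1+ was 5.40 in T3 and 4.86 in T5, and in T4, with GAL1+ set to the floor of 3 reads, GAL1- cells were at least 23.5-fold higher.

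*Boc* encodes an immunoglobulin-family co-receptor that binds ligand together with Patched. In GAL1+ cells it was at 2.58 in T3, 0.96 in T4 and 1.30 in T5 log2 CPM. In GAL1- cells it was at 3.97, 3.72 and 3.97, and in PDGFRA+ cells at 4.14, 3.46 and 3.66. PDGFRA- cells were at 3.37, 3.21 and 2.20, and their T5 value lay within the GAL1+ range. GAL1+ cells did not overlap GAL1- or PDGFRA+ cells. The log2 fold change of GAL1+ over GAL1- cells was −2.28 (SE 0.32, adjusted p = 0.000268), and leaving out any 1 tumor kept it between −2.71 and −2.03 with the call. *Boc* was the member with the largest share of its variance between populations, 79.5%, against 10.7% between tumors.

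*Cdon* encodes the co-receptor most similar to BOC, and it did not follow *Boc*. Its levels were 2.67, 3.30 and 2.13 in PDGFRA+ cells, 2.05, 3.52 and 2.50 in PDGFRA- cells, 1.61, 2.85 and 2.63 in GAL1+ cells and 2.17, 3.60 and 1.86 in GAL1- cells (T3, T4 and T5). T4 was the highest tumor in all 4 populations, and 72.4% of the variance of *Cdon* lay between tumors against 4.87% between populations. GAL1+ cells differed from GAL1- cells by −0.18, with a 95% interval from −0.87 to 0.51. Across the 12 libraries the Pearson correlation of *Boc* and *Cdon* was −0.05.

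*Sufu* encodes the cytoplasmic protein that binds GLI factors and keeps them inactive. It was at 4.04, 3.84 and 3.93 log2 CPM in GAL1+ cells and at 4.49, 4.67 and 4.43 in GAL1- cells, with no overlap. PDGFRA+ cells were at 4.40, 4.17 and 4.35 and PDGFRA- cells at 4.15, 4.68 and 3.87, so the T5 library of PDGFRA- cells again lay within the GAL1+ range. The log2 fold change of GAL1+ over GAL1- cells was −0.59 (SE 0.18, adjusted p = 0.0203), lower in 3 of 3 tumors. The call was lost without T3 (adjusted p = 0.0902), without T4 (0.0576), without T5 (0.0597) and without the GAL1+ library of T4 alone (0.0964), at log2 fold changes between −0.67 and −0.47.

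*Ptch1*, the receptor gene, varied least. Its levels ran from 5.06 to 5.85 log2 CPM over all 12 libraries, and 11 of these lay between 5.06 and 5.35. GAL1+ cells differed from GAL1- cells by −0.08, with a 95% interval from −0.40 to 0.23. *Smo* was at 4.53, 4.52 and 3.72 in GAL1+ cells and at 4.69, 4.64 and 4.53 in GAL1- cells. The T5 libraries of GAL1+ and PDGFRA- cells (3.72 and 3.67) were the lowest of the 12 for *Smo*. The fitted difference was −0.37, with a 95% interval from −0.89 to 0.16 (adjusted p = 0.204).

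Of the GLI transcription factors, *Gli2*, the main activator in many tissues, was at 2.22, 0.30 and 1.00 in GAL1+ cells and at −0.16, −0.15 and 1.20 in GAL1- cells. The groups overlapped, and the log2 fold change was 0.88 with a 95% interval from −0.20 to 1.96 (adjusted p = 0.144). *Gli3*, which is mainly processed to a repressor, was at 1.51, 3.60 and 1.79 in GAL1+ cells and at 0.75, 2.98 and 2.83 in GAL1- cells. The fitted difference was 0.11, with a 95% interval from −0.95 to 1.17. *Gli3* had 71.6% of its variance between tumors, with means over the populations of 1.35 in T3, 3.42 in T4 and 2.32 in T5, and its highest value was 4.57 in PDGFRA- cells of T4.

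*Gli1*, the activator that is also a target of the pathway, was near the limit of detection. Its reads ranged from 0 to 32 per library, and 3 of the 12 libraries were at or under the floor (PDGFRA+ of T4 and T5, and PDGFRA- of T5). GAL1+ cells were at 0.20, −0.40 and −0.73 log2 CPM, from 19, 9 and 7 reads, and GAL1- cells at −2.95, 0.44 and −1.82. The groups overlapped, and the log2 fold change was 1.13 with a 95% interval from −1.36 to 3.62, so the direction of any difference was not resolved. *Gli1* overlaps *Arhgap9*, a leukocyte-expressed gene on the opposite strand with a log2 fold change of 3.62 in the same comparison. Whether reads were counted by strand was not given in the sources used here, so reads of this pair may not be separable.

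**Figure D2:**
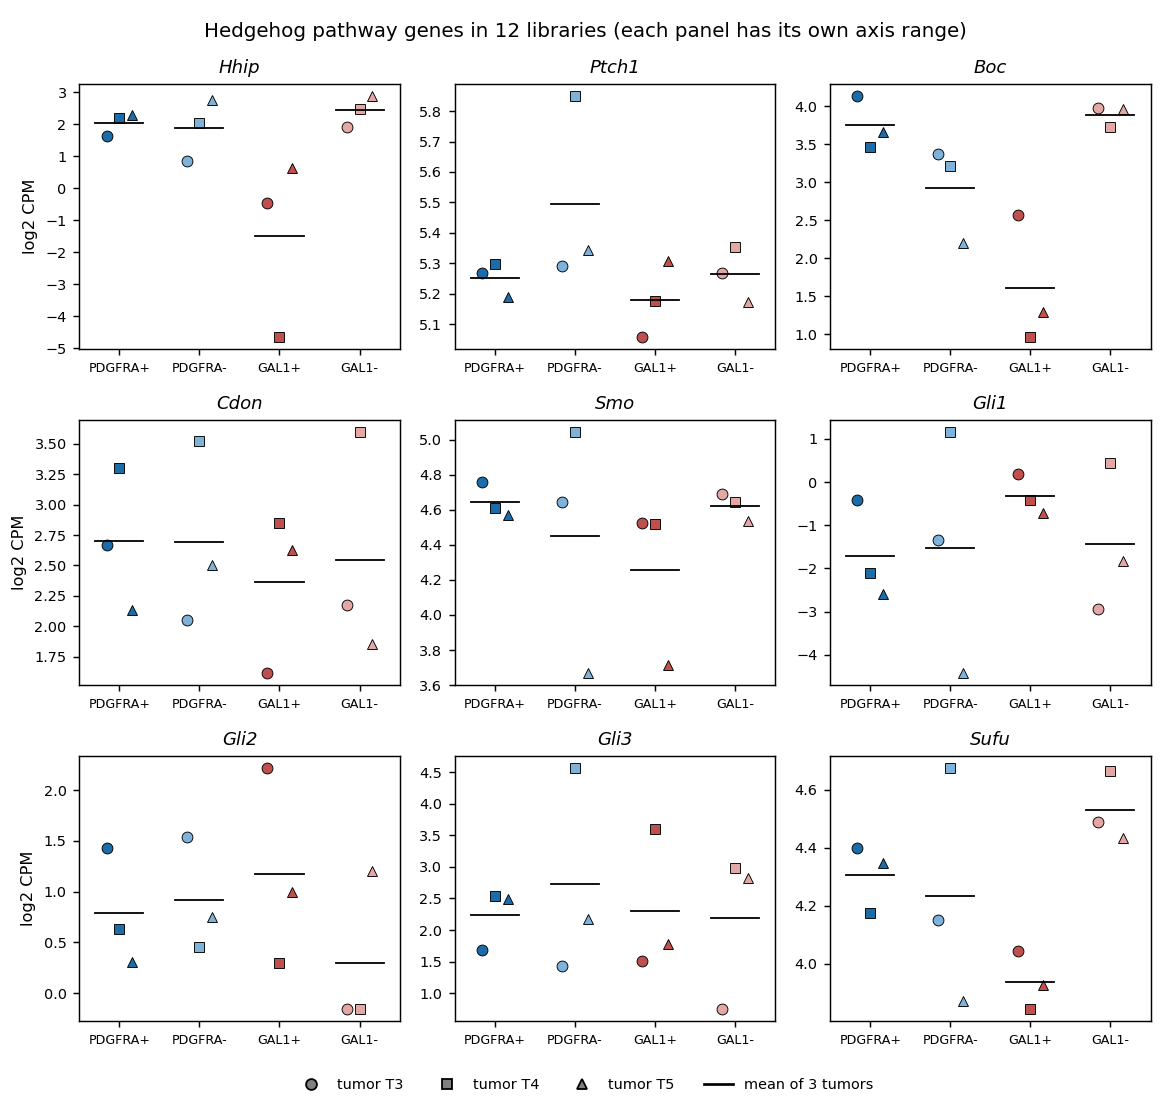
Log2 CPM (y axis, a separate range in each panel) of the 9 Hedgehog genes in PDGFRA+, PDGFRA-, GAL1+ and GAL1- cells; symbols mark the 3 tumors and lines the mean of 3. GAL1+ cells lie lowest in the *Hhip* panel (−4.65 to 0.65), and the T4 squares lie highest in every population in the *Cdon* panel.

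The PDGFRA+ cells were then set against GAL1+ cells. These comparisons share the GAL1+ libraries with the one above and are not independent of it. In PDGFRA+ over GAL1+ cells 2 of 9 members were called, *Hhip* and *Boc*, both higher, against 38% of all genes called and 20.9% called higher. *Boc* was higher in PDGFRA+ cells by a log2 fold change of 2.14 (SE 0.32, adjusted p = 0.00186), in 3 of 3 tumors. *Hhip* was higher by 3.52 (SE 0.96, adjusted p = 0.0191), and by 1.88 (adjusted p = 0.00781) without the GAL1+ library of T4. Leaving out T3 ended the *Hhip* call (log2 fold change 4.24, adjusted p = 0.0834). *Sufu* differed by 0.37 with a 95% interval from −0.05 to 0.78 (adjusted p = 0.142), and *Ptch1* by 0.07 with an interval from −0.24 to 0.38. The other differences were 0.39 for *Smo*, 0.34 for *Cdon*, −0.06 for *Gli3*, −0.38 for *Gli2* and −1.39 for *Gli1*, and none of these was called (adjusted p from 0.212 to 0.932).

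In PDGFRA- over GAL1+ cells the same 2 genes of 9 were called higher, against 20.1% of all genes called and 13.2% called higher. The log2 fold change was 3.37 for *Hhip* (SE 0.96, adjusted p = 0.0380) and 1.32 for *Boc* (SE 0.32, adjusted p = 0.0232). Neither call held in the fit without the tumor block (adjusted p = 0.0951 for *Hhip* and 0.0943 for *Boc*). Without the PDGFRA- library of T5, *Boc* was higher by 1.62 (adjusted p = 0.00736) and *Hhip* by 3.41 (adjusted p = 0.0535). Without the GAL1+ library of T4, *Hhip* was higher by 1.72 (adjusted p = 0.0308) and *Boc* by 1.02 (adjusted p = 0.101). *Ptch1* had an unadjusted p of 0.0481 here (log2 fold change 0.31, adjusted p = 0.132), and *Sufu* differed by 0.30 (adjusted p = 0.269).

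Between PDGFRA+ and PDGFRA- cells 0 of 9 members were called by limma, and 0% of all genes were called either, the smallest adjusted p over all genes being 0.181. At an unadjusted p under 0.05 there was 1 member, *Boc*, against 11.8% of all genes. *Boc* was higher in PDGFRA+ cells by 0.83 (SE 0.32, unadjusted p = 0.0274, adjusted p = 0.375), in 3 of 3 tumors. The differences were 0.15 for *Hhip* (95% interval −2.01 to 2.31), −0.24 for *Ptch1* (−0.55 to 0.07) and 0.07 for *Sufu* (−0.34 to 0.49). Without the PDGFRA- library of T5 the *Boc* difference was 0.52 (adjusted p = 0.845). The *Hhip* interval is wide enough to hold changes of several fold in either direction.

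In PDGFRA+ over GAL1- cells 0 of 9 members were called by limma and 0 had an unadjusted p under 0.05, against 8.27% of all genes called and 17.3% with such an unadjusted p. The differences were −0.40 for *Hhip*, −0.13 for *Boc*, −0.01 for *Ptch1* and −0.22 for *Sufu*. In PDGFRA- over GAL1- cells 0 of 9 were called, against 23.1% of all genes, and 1 of 9, *Boc*, had an unadjusted p under 0.05, against 38.7% of all genes. *Boc* was lower in PDGFRA- cells by a log2 fold change of −0.96 (SE 0.32, adjusted p = 0.0557), and by −0.65 (adjusted p = 0.235) without the PDGFRA- library of T5. *Hhip* differed by −0.55, *Ptch1* by 0.23 and *Sufu* by −0.30 in this comparison, with adjusted p-values from 0.250 to 0.703.

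**Figure D3:**
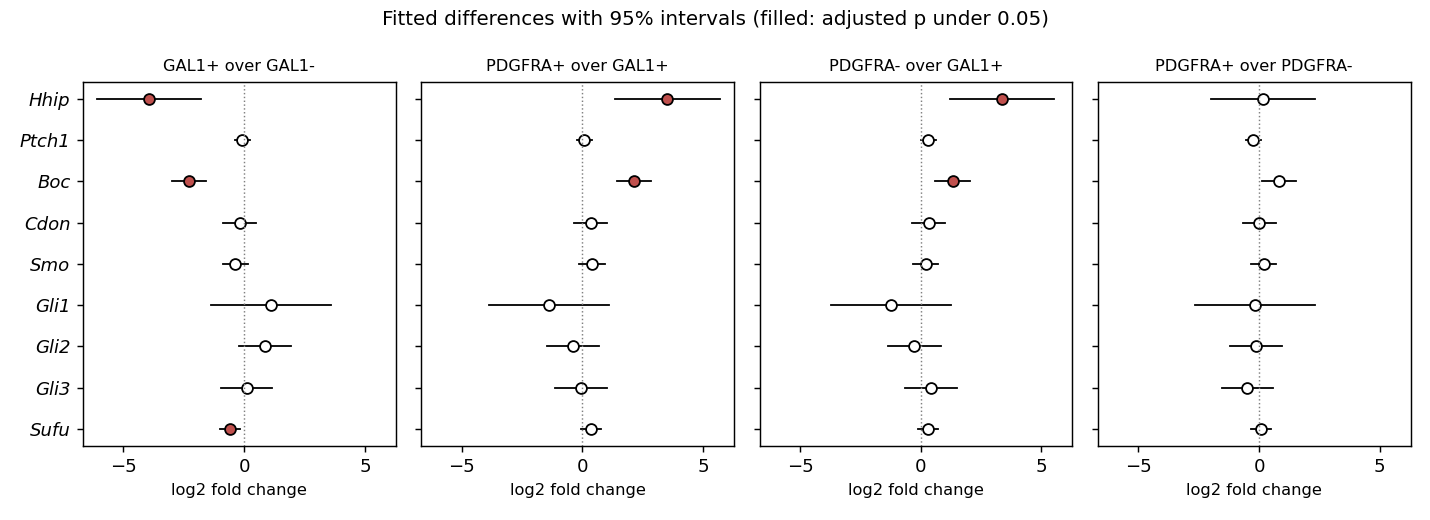
Log2 fold changes of the 9 genes with 95% intervals (x axis) in 4 comparisons; filled points were called at an adjusted p under 0.05. *Hhip* and *Boc* are called in each of the 3 comparisons that hold GAL1+ cells, *Sufu* in GAL1+ over GAL1- cells, and no point is filled in PDGFRA+ over PDGFRA- cells.

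Markers of other cells moved in the same comparisons as *Hhip* and *Boc*. In GAL1+ over GAL1- cells 28.9% of all genes were called higher and 29.3% lower. There 12 of 12 pan-leukocyte markers and 16 of 16 microglia and macrophage markers were called higher, and 10 of 10 oligodendrocyte precursor markers were called lower. The summed level of the 10 precursor markers ran from 450 to 1452 CPM for GAL1+, from 1174 to 3298 for PDGFRA-, from 3144 to 4585 for PDGFRA+ and from 3945 to 4850 for GAL1- cells. Astrocyte markers (5 of 9 lower, 0 higher), neuron markers (5 of 9 lower, 0 higher) and mature oligodendrocyte markers (8 of 10 lower, 1 higher) were also called lower in GAL1+ cells. Endothelial (10 of 10), pericyte and smooth muscle (9 of 10) and fibroblast and leptomeningeal markers (6 of 8) were called higher there. T and NK cell markers (2 of 7 higher, 0 lower) were near the share of all genes, with a median log2 fold change of −0.03, as over all genes. Ependymal markers gave 1 higher and 2 lower of 6. The part of any of these in the Hedgehog gene differences was not tested. In PDGFRA- over GAL1+ cells, where *Hhip* and *Boc* were also called, 2 of 12 pan-leukocyte and 8 of 16 microglia and macrophage markers were called lower, while 8 of 10 precursor and 9 of 10 mature oligodendrocyte markers were called higher. Over all genes 20.1% were called there, 13.2% as higher. In PDGFRA+ over GAL1+ cells 12 of 12 pan-leukocyte and 12 of 16 microglia and macrophage markers were lower, and 10 of 10 precursor and 3 of 10 mature oligodendrocyte markers were higher. The shares over all genes were 38% called and 20.9% called higher in that comparison. All 12 pan-leukocyte markers were also called higher in PDGFRA+ and in PDGFRA- cells than in GAL1- cells. Of the 10 precursor markers, 0 were called in PDGFRA+ over GAL1- cells, while 5 were lower and 0 higher in PDGFRA- over GAL1- cells. Mature oligodendrocyte markers gave 0 called in the first and 4 of 10 higher, 0 lower, in the second. Over all genes 8.27% were called in the first and 23.1% in the second. In PDGFRA+ cells *Hhip* and *Boc* differed from GAL1- cells by −0.40 and −0.13 (95% intervals −2.56 to 1.76 and −0.85 to 0.58). In PDGFRA- cells they differed by −0.55 and −0.96 (−2.71 to 1.61 and −1.67 to −0.25), with no call in either population.

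Across the 12 libraries *Boc* correlated most with *Sufu* among the members (Pearson r = 0.80), followed by *Hhip* with *Boc* (0.71) and *Smo* with *Sufu* (0.71). *Cdon* correlated most with *Ptch1* (0.67) and *Gli3* (0.63). These are descriptions over 12 libraries that share 3 tumors and 4 gates. *Hhip* had 0 reads in the GAL1+ library of T4 (−4.65 log2 CPM, against −0.45 for the next lowest library). That 1 library weighs heavily in each correlation of *Hhip*. *Gli1* had 3 of the 12 libraries at or under the floor, which limits its correlations too. Among 13935 genes, those most like *Boc* were *Cntn4* (r = 0.992), *Brinp1* (0.991) and *Nrxn2* (0.991). The genes most like *Hhip* were *Cyb5r2* (0.972), *Chgb* (0.965) and *Otud7a* (0.959). *Sufu* was followed most closely by *Pdlim5* (0.963), *Spin4* (0.952) and *Lrrc8b* (0.948), *Smo* by *Ckap4* (0.974), *St3gal5* (0.969) and *Wwc1* (0.960), and *Gli3* by *Itgb4* (0.980), *Egflam* (0.970) and *Fbln2* (0.970). For *Ptch1* (*Tmem198b*, 0.907, *Rsbn1*, 0.902, and *Smad4*, 0.892), *Cdon* (*Tet3*, 0.896, *Ints6*, 0.889, and *Rps6kb1*, 0.844), *Gli2* (*Gstm1*, 0.893, *Ccn2*, 0.828, and *Abcc4*, 0.807) and *Gli1* (*Snx12*, 0.893, *Airn*, 0.839, and *Fblim1*, 0.832) the closest genes were less alike.

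Ligands were read in the same libraries. *Dhh*, the gene of Desert hedgehog, was at 3.48, 4.57 and 3.99 log2 CPM in PDGFRA+ cells, 3.71, 7.49 and 2.82 in PDGFRA- cells, 3.07, 6.26 and 2.79 in GAL1+ cells and 4.19, 5.77 and 4.25 in GAL1- cells (T3, T4 and T5). T4 was the highest tumor in every population, as for *Cdon* and *Gli3*, with a mean of 6.02 over the populations against 3.61 in T3 and 3.46 in T5. The log2 fold change of *Dhh* in GAL1+ over GAL1- cells was −0.70 (SE 0.62, adjusted p = 0.363). *Dhh* overlaps *Rhebl1* on the same strand, a gene at 16 to 69 reads, so part of its reads may be uncertain. *Shh*, the gene of Sonic hedgehog, had 0.43 to 55 reads per library and 4 libraries at or under the floor. Its 4 highest values were the 4 T5 libraries, from 0.10 (PDGFRA-) through 0.60 (GAL1+) and 0.93 (PDGFRA+) to 1.17 (GAL1-), and every T3 and T4 library lay between −3.60 and −1.88. Only the T5 libraries (1.07 to 2.24 CPM) were above the study's CPM cutoff for keeping a gene, and the highest of T3 and T4 was 0.272 CPM. *Shh* thus entered the deposited table through T5 alone, so its height in T5 cannot be read as a separate result. Its log2 fold change in GAL1+ over GAL1- cells was −0.23 (SE 0.60, adjusted p = 0.766). *Ihh* was not analysed here.

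Of the 10 measured genes for ligands and their release, 1 was called lower in GAL1+ than in GAL1- cells and 0 higher. Over all genes 29.3% were called lower and 28.9% higher, so 1 of 10 is not more than the background. The gene called was *Disp2*, of the Dispatched family (−2.27, SE 0.46, adjusted p = 0.00228). *Disp1*, whose protein releases the lipid-bearing ligand, ran only from 2.94 to 3.33 over the 12 libraries. The log2 fold changes of the rest were 0.64 for *Hhat*, which acylates the ligand, −0.75 for *Hhatl*, −0.09 for *Ptchd1*, 0.18 for *Scube1*, −0.01 for *Scube2* and −0.65 for *Scube3*. None of these was called. The list's median was −0.16.

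**Figure D4:**
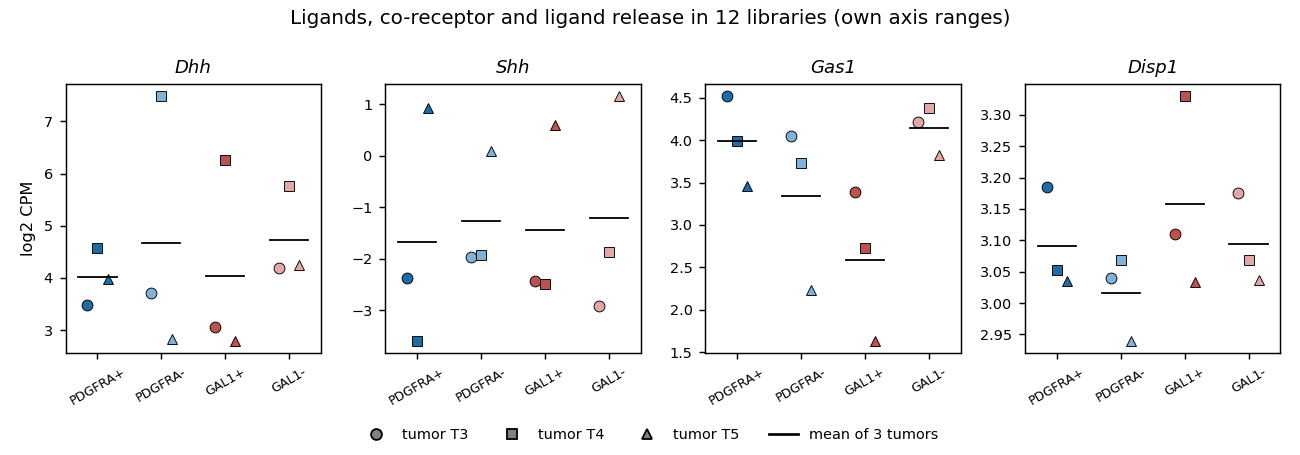
Log2 CPM (y axis, a separate range in each panel) of the ligand genes *Dhh* and *Shh*, the co-receptor gene *Gas1* and the release gene *Disp1* in the 4 populations; symbols mark tumors and lines the mean of 3. In the *Shh* panel the T5 triangles (0.10 to 1.17) lie above all other points, and in the *Dhh* panel the T4 squares lie highest in each population. *Shh* passed the study's filter on low levels only through T5.

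Among 9 other surface proteins of the pathway, 5 were called lower in GAL1+ than in GAL1- cells and 0 higher, against 29.3% of all genes called lower, with a list median of −0.73. *Gas1*, a co-receptor that acts beside BOC and CDON, was at 3.38, 2.73 and 1.63 in GAL1+ cells and at 4.21, 4.38 and 3.83 in GAL1- cells, with no overlap. The fitted difference was −1.56 (SE 0.26, adjusted p = 0.000814), in the direction of *Boc*. The glypicans *Gpc6* (−1.96, adjusted p = 0.000383) and *Gpc1* (−1.12, adjusted p = 0.0157) also fell, while *Gpc3* (0.03) and *Gpc4* (0.22) were not called.

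Genes that regulate GLI proteins were called in both directions. In GAL1+ over GAL1- cells 8 of the 27 measured were called as higher, 11 as lower, with a median of −0.08, against 28.9% of all genes called higher and 29.3% lower. *Arrb2* (2.52, adjusted p = 0.000133) and *Grk2* (1.16, adjusted p = 0.000937), a beta-arrestin and a kinase that act on many receptors besides Smoothened, and the kinase *Dyrk2* (1.99, adjusted p = 4.77e-05) were higher. *Gpr161*, a ciliary receptor that restrains the pathway (−1.99, adjusted p = 0.000295), *Evc*, a ciliary partner of Smoothened (−1.70, adjusted p = 0.00557), and the ciliary kinesin *Kif7* (−1.64, adjusted p = 0.000299) were lower. Of 36 ciliary transport genes, 22 were called lower and 2 higher, with a median of −0.52, against the same 29.3% and 28.9% of all genes. *Bbs1* (−1.74), *Dync2li1* (−1.59) and *Ift81* (−1.50) were the lowest, and *Bbs5* (0.99) and *Ift52* (0.34) were those called higher.

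Of 20 measured genes known as GLI targets in some tissue, 12 were called lower and 4 higher in GAL1+ cells, with a median of −1.25, against 29.3% of all genes called lower and 28.9% higher. The largest falls were in *Nkx6-2* (−3.21, adjusted p = 0.00152), *Olig2* (−2.87, adjusted p = 7.42e-05) and *Nkx2-2* (−2.75, adjusted p = 9.71e-05), transcription factors of the oligodendrocyte lineage, and *Olig2* is also among the precursor markers above. *Cdk6* (2.42, adjusted p = 3.93e-05), *Foxc2* (2.17, adjusted p = 0.00338) and *Foxf2* (1.94, adjusted p = 0.0110) were higher. The targets most used as readouts, *Ptch1* and *Gli1*, are among the 9 members and were not called, while *Hhip* was. Against GAL1+ cells, PDGFRA+ cells had 10 of 20 targets higher and 1 lower, 13 of 36 ciliary genes higher and 0 lower, 3 of 9 surface proteins higher and 0 lower, 1 of 10 ligand and release genes higher, and 8 higher with 7 lower of 27 GLI regulators. Over all genes 38% were called there, 20.9% as higher. Between PDGFRA+ and PDGFRA- cells 0 genes of these 5 lists were called.

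**Figure D5:**
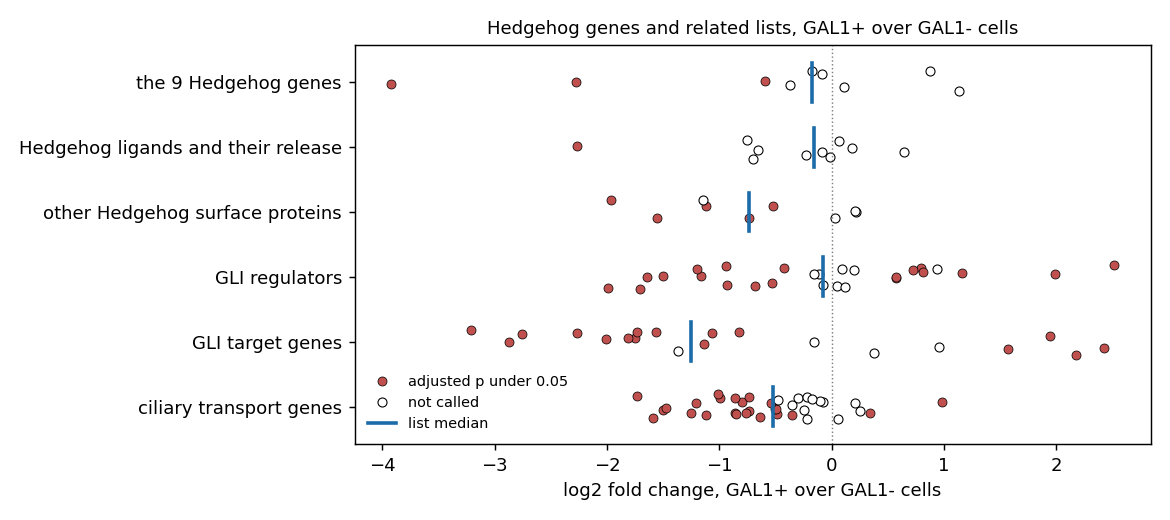
Log2 fold change of GAL1+ over GAL1- cells (x axis) for the 9 Hedgehog genes and 5 related lists (y axis, points spread for visibility); filled points were called at an adjusted p under 0.05 and blue bars are list medians. The GLI target list has the lowest median (−1.25) and points on both sides, and the GLI regulators lie on both sides of their median of −0.08.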

How the data were processed

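RNA from sorted cells was made into libraries with the SMARTer Stranded Total RNAseq v3 Pico kit. The authors trimmed reads with fastp, aligned to mm39 with STAR and summarised exon reads with featureCounts, giving reads with several matches fractional weight. Genes above a CPM cutoff in a minimum number of samples were kept, scaled by TMM and passed through voom. The deposited values are therefore log2 CPM, with an offset of 0.5 per count. Reads were recovered by taking each library's lowest value as a count of 0. Of the recovered values 41.3% to 59.2% per library were whole (tolerance 0.01), so no count test was run.

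All 12 libraries entered a linear model with population terms and a tumor block, fitted with limma 3.58.1 in R 4.3.3 (eBayes with trend, 6 residual and 3.49 prior degrees of freedom), and p-values were adjusted by Benjamini-Hochberg over 18180 genes. Tumor numbers in the labels pair the libraries. After population means were removed, libraries of the same tumor had a mean correlation of 0.486 (18 pairs, 0.140 to 0.662). Replicates are tumors. The fit was tested on simulated data.

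The members and lists were chosen with earlier results of these data known. Genes named besides the members were the ligand genes, up to 3 called genes per direction and list with the largest change in GAL1+ over GAL1- cells, and the 3 genes most correlated with each member (mean log2 CPM of at least 0, predicted genes left out). *Arhgap9*, *Rhebl1*, *Gpc3* and *Gpc4* were named after their values were seen. Some items are not reported here. Exon lengths came from GENCODE and promoters from RefSeq, both for GRCm38 and not the authors' build. Figures were drawn with matplotlib 3.10.9. Alternatives changed the block, samples, variance prior, weights, pseudocount, filter and scaling, or left out tumors or libraries.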

Additional observations from a re-analysis of the deposited data

How the results depend on the processing

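Over 12 alternative settings and 1 chosen after seeing the data (without the GAL1+ library of T4), 669 fold changes of members were recomputed. Of these, 604 kept direction and side of the threshold, 17 lost a call, 5 gained one and 43 changed sign, 0 of them for a called gene. In GAL1+ over GAL1- cells *Hhip* and *Boc* were called in 13 of 13 alternatives (highest adjusted p 0.0308 and 0.00572) and *Sufu* in 9. The members called in PDGFRA- over GAL1+ cells fell from 2 to 0 without the tumor block and 0 with only the libraries of the compared groups, to 1 without the trend, to 1 without the GAL1+ library of T4, to 1 without the PDGFRA- library of T5, and ranged from 0 to 1 without each tumor. All genes called there were 725 without the block. The block changed no other count. In PDGFRA- over GAL1- cells the count rose from 0 to 1 (*Boc*) with voom weights, log2(CPM + 1), quantile normalization or median centring, and was 0 to 1 without each tumor. In PDGFRA+ over GAL1+ cells it was 1 to 2 without each tumor. Median centring moved PDGFRA+ over GAL1+ differences by 0.16, PDGFRA- over GAL1+ by 0.14 and PDGFRA+ over GAL1- by 0.11, and turned *Ptch1* in the first to −0.087. Leaving out a tumor or library also changed signs of differences that were not called. In PDGFRA+ over PDGFRA- cells *Hhip* ranged from −0.16 to 0.46 and *Sufu* from −0.13 to 0.36. In GAL1+ over GAL1- cells *Cdon* ranged from −0.66 to 0.11 and *Gli3* from −0.21 to 0.69. In PDGFRA+ over GAL1+ cells *Cdon* ranged from −0.021 to 0.75, *Gli3* from −0.44 to 0.44 and *Ptch1* from −0.012 to 0.17. *Ptch1* in PDGFRA+ over GAL1- cells ranged from −0.026 to 0.0089. Apart from median centring and the settings that use fewer samples, the cause of these shifts was not tested. *Gli1* had no value under the filter on low levels. Depth limits *Gli1*, *Shh* and *Hhip* in GAL1+ cells.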
